A study of Homo sapiens with 6 samples.

Results

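The genes of the PI3K, AKT and mTOR kinase pathway were followed in PANC-1, a cell line from a human pancreatic carcinoma. One group was transfected with a small interfering RNA that the series design names siNR4A1, and the other with a control RNA, siControl. The genes were chosen by name: 41 genes were listed, and every probe whose symbol in the array file was one of them, or an older symbol of one, was taken. All 41 had a probe, 77 probes in all out of 47230 on the array, and 33 of the genes, through 50 probes, were bright enough to be tested. Total RNA was read on Illumina BeadChips, which measure each transcript as the brightness of short probes, in 3 arrays of siNR4A1 and 3 arrays of siControl. Both groups were transfected PANC-1 cultures, and no untransfected group is described in the labels. The sample titles spell the first group siTR4A1. No dose, time after transfection or passage is given in the sources used here, and the labels do not say whether replicates were separate cultures, so p-values measure the spread between these arrays, which may be technical.

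Phosphoinositide 3-kinases (PI3K) phosphorylate membrane lipids when growth factor receptors are active, and the lipid they make recruits the kinases PDK1 and AKT. AKT inhibits the TSC complex, which otherwise holds the small GTPase RHEB inactive, and active RHEB switches on mTOR complex 1, the kinase complex that promotes protein synthesis through the S6 kinases. AKT also phosphorylates GSK3 and the FOXO transcription factors, and lipid phosphatases such as INPP4B oppose the PI3K step. In pancreatic cancer cells this pathway acts downstream of growth factor receptors. Most of its control is by phosphorylation, which arrays of RNA do not measure.

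Array brightness varied. The mean signal ran from 439 to 520 over siNR4A1 arrays and from 332 to 623 over siControl arrays, and between 18231 and 20407 probes were detected per array. Of the 77 member probes, 47 to 54 were detected on each array. All NR4A1 probes were below the detection threshold on all 6 arrays, so the arrays give no reading of the knockdown. The brightest, ILMN_2408566, had a signal of 106 ± 9.30 in siNR4A1 and 98.8 ± 10.8 in siControl (SD, n = 3 each). Of the epithelial markers KRT7, KRT8, KRT18, KRT19 and EPCAM, only KRT7 was not detected on any array. CD3E, PECAM1, CDH5 and PRSS1, markers of lymphocytes, endothelium and pancreatic acinar cells, were not detected on any array. By their most often detected probe, the blood cell markers PTPRC and CD79A and the normal pancreas marker INS were each detected on 1 array. The fibroblast marker COL3A1 was detected on 3. CD14, HBA1, ALB and COL1A1 had dim signals, between 95.2 and 237 for their brightest probes, and were detected on 5 or 6 arrays. Of these, CD14 and HBA1 rose by 0.44 and 0.40 and ALB fell by 0.32 on the log2 scale (limma, adjusted p = 0.0115, 0.0416 and 0.0463), and their part in the results was not tested.

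Among the 33 tested members 4 rose and 5 fell in siNR4A1, and 24 did not pass the test. The test was limma with Benjamini-Hochberg adjustment over all 13715 genes and a threshold of 0.05, on log2 signals after background correction and quantile normalization. PIK3CB, PIK3CA and PIK3C2B, all catalytic subunits of lipid kinases, fell, as did the kinases AKT2 and RPS6KA1. The TSC complex subunit TBC1D7, the GTPase RHEB, the mTOR subunit MLST8 and the S6 kinase RPS6KB2 rose. Of the 5 tested subunits of the mTOR complexes MLST8 alone passed, and their median change was -0.07. The 9 members that changed are 27.3% of those tested, and 19.5% of all genes tested changed. By direction, 12.1% of members rose, against 10.8% of all genes, and 15.2% fell, against 8.70% of all genes. The median log2 change was 0.13 over the tested members and 0.02 over all genes, and the median size of change, whatever its sign, was 0.23 and 0.17. In 11 of the 33, or 33.3%, no siNR4A1 array fell inside the siControl range and the ranges did not overlap, as for 35.4% of all genes. Changes were small: 2 of the 9, PIK3CB and AKT2, reached 1.5-fold.

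**Figure D1:**
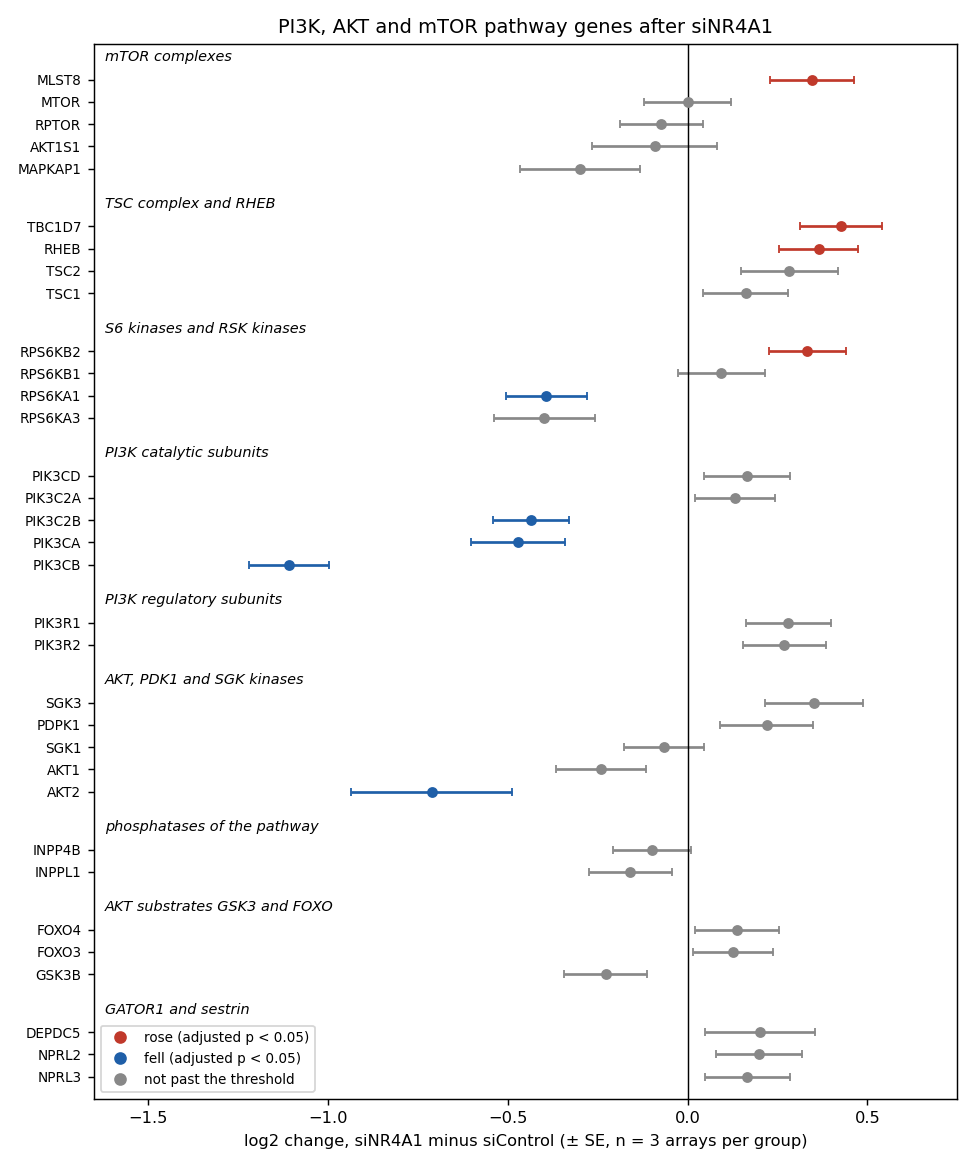
The log2 change (horizontal axis, siNR4A1 minus siControl) of each of the 33 tested members, grouped by role, with bars of 1 SE from limma on 3 arrays per group. The catalytic subunit PIK3CB stands farthest from 0, at -1.11, and in the TSC complex and RHEB group TBC1D7 and RHEB are past the threshold, at 0.43 and 0.36, and TSC1 and TSC2 are not.

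The number of members called varied when single arrays were left out, and so did the share of all genes called. As reported it was 9 members and 19.5% of all genes. Without siNR4A1 replicate 1, 2 or 3 it was 4, 5 and 4 members, and 13.6%, 12.7% and 10.9% of all genes. Without siControl replicate 1, 2 or 3 it was 5, 8 and 9 members, and 14.3%, 15.8% and 20.9% of all genes. These fits also had fewer arrays. When only the array medians were made equal, without quantile normalization, 0 members and 0 of all genes passed in limma. At an unadjusted p under 0.05 stood 3 of the 33 members and 1089 of all 13715 genes. Under that scaling the median of all genes stood at 0.13 and all 9 kept their sign.

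The promoters of members that moved in one direction are shown for the 3 catalytic subunits that fell and for RHEB and TBC1D7, which rose. Each window holds the 250 bases before the annotated gene start, taken from RefSeq (GRCh38.p14) and read 5′ to 3′ on the gene's own strand. Capitals mark GC boxes (GGGCGG or CCGCCC, the core that SP family factors bind) and, in PIK3CA, the FOXO motif (GTAAACA or TGTTTAC). PIK3CB has a second annotated start, whose window held no match and is not printed.
PIK3CB, chr3:138834929-138835178, minus strand: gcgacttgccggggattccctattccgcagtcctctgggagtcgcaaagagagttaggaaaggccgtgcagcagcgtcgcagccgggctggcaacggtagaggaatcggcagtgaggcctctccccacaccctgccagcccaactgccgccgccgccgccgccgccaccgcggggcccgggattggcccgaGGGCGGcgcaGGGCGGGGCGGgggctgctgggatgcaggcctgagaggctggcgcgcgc
PIK3CA, chr3:179148107-179148356, plus strand: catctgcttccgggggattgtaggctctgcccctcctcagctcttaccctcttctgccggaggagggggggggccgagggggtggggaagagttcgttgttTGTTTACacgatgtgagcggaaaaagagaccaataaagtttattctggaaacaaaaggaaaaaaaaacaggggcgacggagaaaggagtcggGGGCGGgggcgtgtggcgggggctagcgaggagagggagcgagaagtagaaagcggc
PIK3C2B, chr1:204494806-204495055, minus strand: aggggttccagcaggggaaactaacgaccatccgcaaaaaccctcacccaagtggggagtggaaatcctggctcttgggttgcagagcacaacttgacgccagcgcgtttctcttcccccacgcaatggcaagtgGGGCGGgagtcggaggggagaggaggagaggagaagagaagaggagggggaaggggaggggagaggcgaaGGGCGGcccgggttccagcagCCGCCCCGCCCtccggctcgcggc
RHEB, chr7:151519896-151520145, minus strand: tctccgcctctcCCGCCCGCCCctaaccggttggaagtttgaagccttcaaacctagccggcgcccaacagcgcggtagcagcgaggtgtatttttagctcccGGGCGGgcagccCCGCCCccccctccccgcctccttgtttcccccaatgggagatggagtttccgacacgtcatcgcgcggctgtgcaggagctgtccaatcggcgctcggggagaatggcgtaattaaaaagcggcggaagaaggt
TBC1D7, chr6:13328538-13328787, minus strand: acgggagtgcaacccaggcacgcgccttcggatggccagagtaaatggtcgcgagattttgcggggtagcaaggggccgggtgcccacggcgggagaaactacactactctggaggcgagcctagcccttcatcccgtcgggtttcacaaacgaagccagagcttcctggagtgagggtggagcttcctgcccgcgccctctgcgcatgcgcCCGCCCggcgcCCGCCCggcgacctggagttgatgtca

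Among the changed members with a window, all 5 that fell and 2 of the 3 that rose held a GC box in at least 1 window. RPS6KB2, the remaining one that rose, held none. A GC box was also held by 17 of the 22 members with a window that did not pass the test. Of 37 members with a window in the table, 29 held a GC box in at least 1 of their windows, and by window the count was 40 of 67. The same match occurred in 42.5% of all 34943 windows. The NR4A1 response element NBRE (AAAGGTCA or TGACCTTT) was found in 0 member windows and in 1.04% of all windows. The FOXO motif occurred in 1 member window, that of PIK3CA, and in 2.98% of all windows. CACGTG, the E-box, was present in 2 member windows and 6.32% of all. A match is a description of the letters, and binding was not measured.

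PIK3CB, the class I catalytic subunit p110beta, which is activated by G protein-coupled as well as tyrosine kinase receptors, had the largest change of all members. Its normalized log2 signal was 6.79, 7.00 and 6.77 on the siNR4A1 arrays, against 8.04, 7.92 and 7.91 on the siControl arrays. All siNR4A1 arrays lay below all siControl arrays, with little spread inside either group. The change was -1.11 ± 0.11 (SE, n = 3 per group), or 2.15-fold lower, with a limma adjusted p of 5.17e-06. Even before normalization the groups did not overlap: the signal of its 1 probe, ILMN_1763347, was 133, 173 and 153 in siNR4A1 and 224, 201 and 394 in siControl. The call held without any single array, at -1.18 to -1.07, and was lost only with array medians equalized, at -1.01.

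PIK3CA encodes p110alpha, the catalytic subunit most often mutated in human cancers. Its log2 signal was 7.42, 7.63 and 7.19 in siNR4A1 and 8.06, 7.69 and 7.89 in siControl. The groups did not overlap, although siNR4A1 replicate 2 and siControl replicate 2 lay close together. It fell by 0.47 ± 0.13 (SE; limma, adjusted p = 0.0180), a call lost without siControl replicate 1 (-0.38) or siNR4A1 replicate 3 (-0.36). A second PIK3CA probe, ILMN_1705396, was not detected on any array.

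PIK3C2B, a class II PI3K that makes a different lipid and is not regulated by p85 proteins, was dim but tightly grouped. Its log2 signal was 6.55, 6.44 and 6.57 in siNR4A1, against 7.00, 6.95 and 6.92 in siControl. It fell by 0.44 ± 0.11 (SE; limma, adjusted p = 0.00835), and without siNR4A1 replicate 2 the change was -0.40 and missed the threshold. The background offset sets the scale of dim probes: with an offset of 16 in place of 50 the change of PIK3C2B was -0.64 and that of PIK3CB -1.40.

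PIK3CD (p110delta, best known from leukocytes) and PIK3C2A, the other class II enzyme, did not pass. PIK3CD differed by 0.17 ± 0.12 (SE), with a 95% interval from -0.09 to 0.42, and PIK3C2A by 0.13 ± 0.11 (SE), from -0.10 to 0.37. The intervals leave out a fall of the size measured for PIK3CB, while a small change in either direction remains possible. For PIK3C2A a second probe gave -0.19, so its direction depended on the probe. In all, 3 of 5 tested catalytic subunits fell and 0 rose in limma, also at an unadjusted p under 0.05, and over all genes 8.70% fell and 10.8% rose.

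The regulatory subunits, which hold class I catalytic subunits stable and inactive until a receptor binds them, did not pass the test. PIK3R1 (p85alpha) had log2 signals of 6.57, 6.75 and 6.76 in siNR4A1 and 6.33, 6.31 and 6.61 in siControl, and its probe was detected on 3 siNR4A1 arrays and 1 siControl array, so its difference is set against a group mostly at background. PIK3R2 (p85beta) had 10.24, 10.36 and 10.51 in siNR4A1 and 9.99, 10.07 and 10.24 in siControl. In both, the groups overlapped or touched. The differences were 0.28 ± 0.12 (SE) for PIK3R1 and 0.27 ± 0.12 (SE) for PIK3R2, and neither passed in limma, at adjusted p-values of 0.108 and 0.117. Unadjusted, the limma p-values were 0.0296 and 0.0331. Of all 13715 genes 4417 had an unadjusted p under 0.05, in either direction. PIK3R1 passed without siControl replicate 3. The remaining 4 probes of PIK3R1 and the only probe of PIK3R3 (p55gamma) were detected on too few arrays to be tested.

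**Figure D2:**
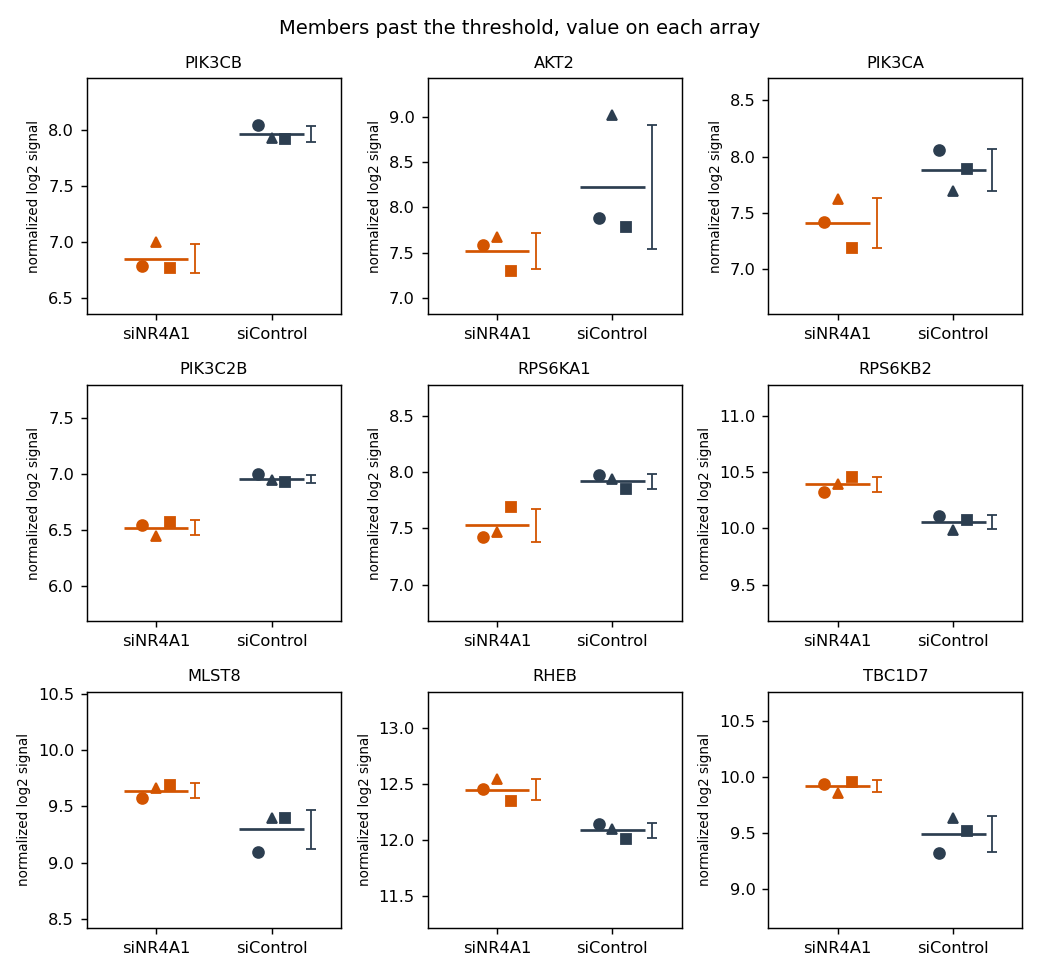
Normalized log2 signal of the 9 members past the threshold on each array, siNR4A1 left and siControl right, with replicates 1, 2 and 3 as circle, triangle and square, the group mean as a line and the SD as a bar. The AKT2 panel covers the widest range, since siControl replicate 2 stood at 9.01 there, against 7.88 and 7.78 on the other siControl arrays.

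AKT2, the AKT isoform tied to insulin-stimulated glucose uptake, is the one changed member whose value rests largely on 1 array. Its log2 signal was 7.58, 7.67 and 7.29 in siNR4A1, against 7.88, 9.01 and 7.78 in siControl. It fell by 0.71 ± 0.22 (SE; limma, adjusted p = 0.0340), and without siControl replicate 2 the change was -0.32 and missed the threshold (limma, adjusted p = 0.107). The call was also lost without siNR4A1 replicate 1 (-0.75) or siNR4A1 replicate 3 (-0.60). Its signals before normalization, 213, 259 and 206 in siNR4A1 and 205, 378 and 359 in siControl, overlapped.

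That control array was also high for 2 further members, AKT1S1 and MAPKAP1. Counting genes for which an array lay more than 0.5 log2 units outside both other arrays of its group, siControl replicate 2 had 3 of the 33 members and 2.07% of all genes. The other siControl arrays had 0 members each and 0.715% and 0.598% of all genes, and the siNR4A1 arrays 0 members each and at most 0.262% of all genes. Its part in the AKT2 change is measured by the value without it, above.

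AKT1, the isoform linked to growth and survival, had 11.31, 11.35 and 11.50 in siNR4A1 and 11.36, 11.75 and 11.77 in siControl. The groups overlapped, and the difference of -0.24 ± 0.12 (SE) did not pass (limma, adjusted p = 0.198). A second AKT1 probe gave -0.17. PDPK1 encodes PDK1, the kinase that activates AKT, SGK and S6 kinases, and its probes disagreed. The brightest differed by 0.22 and a second by 0.33. The dimmest kept one, ILMN_1810554, did not pass detection on any siNR4A1 array but did on all siControl arrays. It differed by -0.29 ± 0.11 (SE). With the dimmest detected signal of an array as the floor, its siNR4A1 mean was 1.14-fold lower, a figure that leaves out the spread between arrays. None of the 3 kept probes passed. Without siControl replicate 2, PDPK1 did.

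The SGK kinases resemble AKT and are activated by PDK1 as well. SGK3 had log2 signals of 7.19, 7.52 and 7.51 in siNR4A1 and 6.93, 6.89 and 7.34 in siControl, where siControl replicate 3 lay above siNR4A1 replicate 1. The difference was 0.35 ± 0.14 (SE; limma, adjusted p = 0.0783), and a second probe gave 0.16. SGK1, a target of glucocorticoids and cell volume, differed by -0.07 ± 0.11 (SE) with a 95% interval from -0.30 to 0.17, and its 3 probes ranged from -0.25 to -0.07.

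TBC1D7 is a subunit of the TSC complex that stabilises TSC1 bound to TSC2. It had 9.94, 9.86 and 9.96 in siNR4A1 and 9.32, 9.64 and 9.52 in siControl, with no overlap. It rose by 0.43 ± 0.11 (SE; limma, adjusted p = 0.0147), the largest rise of a member, and the call was lost without siControl replicate 1 (0.34), siNR4A1 replicate 1 (0.41) or siNR4A1 replicate 3 (0.41).

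RHEB, the GTPase that the TSC complex inactivates and that activates mTOR complex 1, rose as well, so an inhibitor subunit and the activator it acts on were both higher. Its log2 signal was 12.45, 12.55 and 12.35 in siNR4A1, against 12.15, 12.10 and 12.01 in siControl. The groups did not overlap, and the change was 0.36 ± 0.11 (SE; limma, adjusted p = 0.0265). It missed the threshold without siControl replicate 3 (0.33), siNR4A1 replicate 1 (0.36) or siNR4A1 replicate 2 (0.32). The RefSeq gene table lists 3 copies named RHEBP1 to RHEBP3, and their part in the probe's signal was not tested.

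TSC1 (hamartin) and TSC2 (tuberin), the scaffold and the GTPase-activating subunit, did not pass. TSC2 had 7.20, 7.18 and 7.17 in siNR4A1, against 7.13, 6.54 and 7.03 in siControl, and although the groups did not overlap the gap was small and siControl replicate 2 was low. Its difference was 0.28 ± 0.14 (SE; limma, adjusted p = 0.160), or 0.10 without siControl replicate 2. TSC1 differed by 0.16 ± 0.12 (SE), and its 3 probes by -0.20 to 0.16. Of the 4 members of the group 2 rose, against 10.8% of all genes, and the median difference was 0.32.

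MLST8, the subunit shared by both mTOR complexes, had log2 signals of 9.57, 9.66 and 9.69 in siNR4A1, against 9.10, 9.40 and 9.39 in siControl. The siNR4A1 arrays were all higher, and siControl replicate 1 was the lowest of the 6. It rose by 0.35 ± 0.12 (SE; limma, adjusted p = 0.0445), close to the threshold. In the limma fit across all named probes the same probe missed the threshold (adjusted p = 0.0556). The call was lost without siControl replicate 1 (0.25) and without any single siNR4A1 array (0.32 to 0.38).

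MTOR itself, written FRAP1 in the file, had 9.54, 9.57 and 9.68 in siNR4A1 and 9.83, 9.51 and 9.45 in siControl. The groups overlapped and the difference was smaller than its SE of 0.12, with a 95% interval from -0.25 to 0.25. RPTOR, which brings substrates to mTOR complex 1, differed by -0.07 ± 0.12 (SE), and a second probe by 0.16. AKT1S1 encodes PRAS40, an inhibitor of that complex, and its difference of -0.09 turned to 0.18 without siControl replicate 2. RICTOR, the defining subunit of mTOR complex 2, was not detected on any array, and DEPTOR, an inhibitor of both complexes, was detected on at most 2 arrays with either probe, so neither was tested.

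MAPKAP1 encodes SIN1, a second subunit of mTOR complex 2. Its brightest probe, ILMN_2360229, gave 8.44, 8.51 and 8.60 in siNR4A1, against 8.52, 9.35 and 8.59 in siControl. Only siControl replicate 2 stood apart, and the difference was -0.30 ± 0.17 (SE; limma, adjusted p = 0.230), or -0.03 without that array. The other probes gave -0.48 and 0.05, so the gene has no settled direction here.

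Of the S6 kinases and the RSK kinases, all of the AGC kinase family, 1 rose, 1 fell and 2 did not pass. RPS6KB2 (S6K2), a substrate of mTOR complex 1, had 10.32, 10.40 and 10.46 in siNR4A1 and 10.11, 9.99 and 10.07 in siControl. The groups did not overlap. It rose by 0.33 ± 0.11 (SE; limma, adjusted p = 0.0374), a second probe gave 0.19, and the call was lost when any one of the 6 arrays was left out, at 0.30 to 0.37. RPS6KB1 (S6K1), its better studied relative, differed by 0.09 ± 0.12 (SE), with a 95% interval from -0.16 to 0.35.

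RPS6KA1 (RSK1), a kinase activated by ERK and PDK1 that also phosphorylates TSC2, had 7.42, 7.47 and 7.69 in siNR4A1, against 7.98, 7.94 and 7.85 in siControl. It fell by 0.39 ± 0.11 (SE; limma, adjusted p = 0.0218), with groups that did not overlap. The call was lost without siControl replicate 1 (-0.36), siNR4A1 replicate 1 (-0.34) or siNR4A1 replicate 2 (-0.36). RPS6KA3 (RSK2) had 8.30, 8.51 and 7.97 in siNR4A1 and 8.49, 8.88 and 8.61 in siControl. Only siNR4A1 replicate 2 lay inside the control range. Its change of -0.40 ± 0.14 (SE) was as large as that of RPS6KA1 but its spread was wider, and it missed the threshold at a limma adjusted p of 0.0547. Without siNR4A1 replicate 3 it was -0.25. Its 3 tested probes gave -0.40, -0.30 and 0.14.

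**Figure D3:**
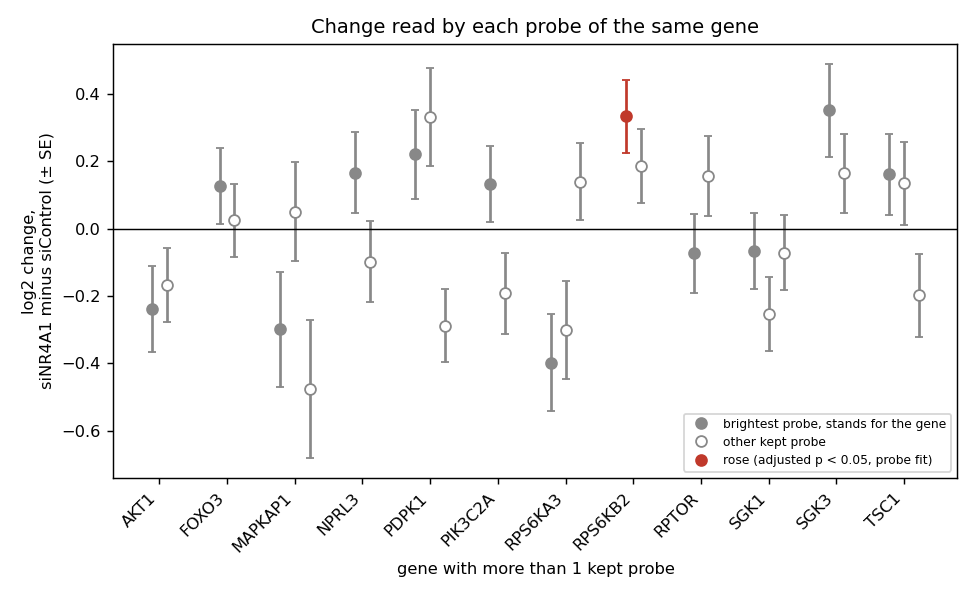
Log2 change (vertical axis, siNR4A1 minus siControl, bars of 1 SE) read by each kept probe of the 12 members with more than 1, from the fit across all 18189 named probes. In 7 of the 12, among them MAPKAP1, PDPK1 and RPS6KA3, probes of the same gene lie on both sides of 0.

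Probe agreement bears on how far each gene can be read. Of the 12 members with more than 1 kept probe, 5 had all probes on one side of 0 (AKT1, FOXO3, RPS6KB2, SGK1 and SGK3) and 7 did not. RPS6KB2 was the only changed member among the 12. The other 8 changed members were each read by 1 kept probe, so no second probe checks them.

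Phosphatases that remove the lipid signal or the AKT phosphate were the next group. INPP4B, which removes a phosphate from a lipid of the pathway, had 8.88, 8.92 and 8.91 in siNR4A1, against 8.96, 8.93 and 9.12 in siControl. The groups did not overlap, but the difference of -0.10 ± 0.11 (SE) was within its error. INPPL1 (SHIP2) differed by -0.16 ± 0.12 (SE). INPP5D (SHIP1, a blood cell enzyme) was not detected on any array and PHLPP1, which dephosphorylates AKT, on 1. None passed, also at an unadjusted p under 0.05.

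GSK3B, a kinase that AKT inhibits, had 7.88, 7.97 and 8.17 in siNR4A1 and 8.30, 8.14 and 8.27 in siControl, and siNR4A1 replicate 3 lay inside the control range. Its difference was -0.23 ± 0.11 (SE; limma, adjusted p = 0.180). FOXO3 and FOXO4, transcription factors that AKT keeps out of the nucleus, did not pass. FOXO3 differed by 0.13 ± 0.11 (SE). FOXO4 differed by 0.14 ± 0.12 (SE). Its probe was detected on 3 siNR4A1 arrays and 1 siControl array, so this difference is set against a group mostly at background. FOXO1 and GSK3A were not detected on any array, each with 1 probe. A gene under the detection threshold may still be expressed.

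The GATOR1 complex, which holds mTOR complex 1 off when amino acids are scarce, was represented by NPRL2, NPRL3 and DEPDC5. Their differences were 0.20 ± 0.12, 0.17 ± 0.12 and 0.20 ± 0.15 (SE), and 0 of 3 passed in limma, also at an unadjusted p under 0.05. A second NPRL3 probe gave -0.10. SESN3, a stress-induced sestrin that acts through the GATOR complexes, was not detected on any array.

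Other genes of the pathway were taken from lists of its known components. Of 23 tested PI3K and AKT genes outside the members, 2 rose and 3 fell, with a median log2 change of -0.06. IRS2, the adaptor that links insulin and IGF1 receptors to PI3K, had 7.44, 7.68 and 7.64 in siNR4A1, against 8.46, 8.73 and 8.49 in siControl. All siNR4A1 arrays were lower, and it fell by 0.97 ± 0.12 (SE; limma, adjusted p = 2.85e-05). PIK3C3, the class III PI3K of autophagy, fell by 0.40, and PHLDA1, a protein with a lipid-binding pleckstrin homology-like domain, by 0.43.

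TRIB3, a stress-induced pseudokinase reported to bind AKT, had 9.06, 9.36 and 9.59 in siNR4A1, against 8.69, 8.34 and 8.58 in siControl. The groups did not overlap, and it rose by 0.80 ± 0.14 (SE; limma, adjusted p = 0.000666).

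Among 33 tested mTOR genes outside the members 5 fell and 0 rose in limma, with 8 lower and 2 higher at an unadjusted p under 0.05 and a median of -0.09. Over all genes 8.70% fell and 10.8% rose, and 4417 of 13715 had an unadjusted p under 0.05. In all 15.2% of this list passed, against 19.5% of all genes. FKBP1A, the FKBP12 protein through which rapamycin binds mTOR, had 11.30, 11.22 and 10.94 in siNR4A1, against 12.11, 12.12 and 12.21 in siControl. It fell by 0.99 ± 0.12 (SE; limma, adjusted p = 2.52e-05), the largest change of that list. That is the reading of its brightest probe, and with its kept probes averaged the change was -0.71. The translation factors EIF4E and EIF4B, which act downstream of mTOR complex 1, fell by 0.68 and 0.51, the ribosomal protein and S6 kinase substrate RPS6 by 0.45, and the autophagy kinase ULK1 by 0.35. FKBP1A, EIF4E, EIF4B and RPS6 have annotated copies elsewhere in the genome, and hybridisation of those was not tested.

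FOXO target genes went both ways, with 5 of 21 rising and 6 falling and a median of -0.15. KLF2 rose by 0.87 ± 0.11 (SE; limma, adjusted p = 3.64e-05), with 9.43, 9.50 and 9.59 in siNR4A1, against 8.63, 8.57 and 8.71 in siControl. CCND1 (cyclin D1, which FOXO factors repress) and GADD45A (which they induce) rose by 0.93 and 0.57. IRS2, PIK3CA and SOD2, all reported FOXO targets, fell. KLF2, GADD45A and SOD2 have annotated copies elsewhere in the genome, and hybridisation of those was not tested. The 11 FOXO target genes that changed are 52.4% of the 21 tested, against 19.5% of all genes. For the PI3K and AKT list and the mTOR list the shares were 21.7% and 15.2%. IRS2 and PIK3CA each stand in 2 of the counts above. The lists were chosen with earlier results of these data known, so these shares are descriptions and not an independent test.

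**Figure D4:**
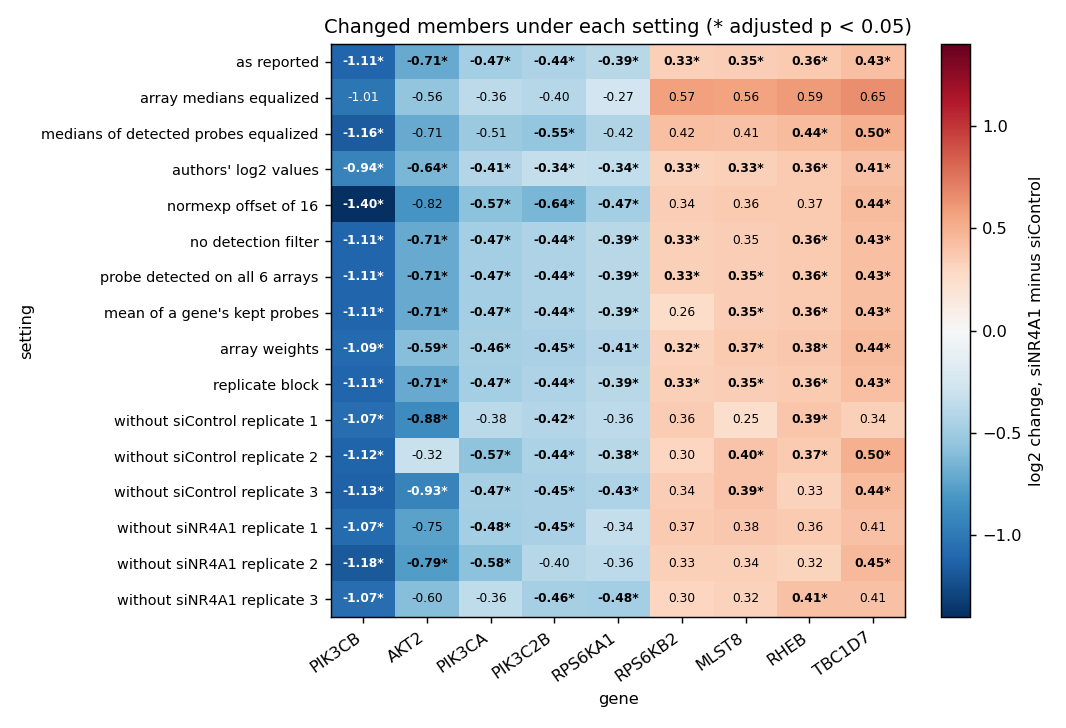
Log2 change (siNR4A1 minus siControl, number and colour) of the 9 changed members as reported and under 15 other settings, with an asterisk where the adjusted p was under 0.05. The sign stays the same in every cell, PIK3CB keeps its call in 14 of the 15, and the calls of RPS6KB2 and MLST8 are those most often lost, in 10 and 8.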

How the data were processed

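For 6 arrays the authors deposited linear probe intensities, which they named non-normalized; the array medians differ, and no value lies at or under 0. Their second deposited table, on a log2 scale, equals quantile-normalized log2 signals within 0.005 with no background step. Per the submitters' processing notes BeadStudio was used (no version); the chip type and genome build are not given in the sources used here. Detection p-values and control probes were not used here.

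Intensities were corrected with normexp (offset 50), quantile normalized and set to log2. A probe was detected on an array above the 95% point of the background, taken from the mode of the log2 signals (density bandwidth 0.03) and the spread below it, and was kept if detected on at least 3 arrays. The brightest kept probe stood for a gene. Older symbols were matched through RefSeq (GRCh38.p14): 4626 probes had a synonym of 1 gene and 3486 an Entrez number. DEPTOR, NPRL2, NPRL3, MTOR and the brightest SGK1 probe were found this way. Groups were compared with limma 3.58.1 (R 4.3.3) over 13715 genes with no covariate, on all 6 arrays. Probes were fitted in the same way over 18189 named probes. Leaving out an array kept the normalization of all 6. The steps were tested on simulated signals.

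Every member is accounted for, and those past the threshold, with the 4 largest that missed it, are given array by array. Of each further list, at most 6 past the threshold are named. One result of these lists is not reported here. The members and lists were chosen with earlier results of these data known.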

Additional observations from a re-analysis of the deposited data

How the results depend on the processing

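Against 9 of 33 members and 2674 of 13715 genes as reported, equalizing array medians left 0 members and 0 genes (1089 genes at an unadjusted p under 0.05), equalizing the medians of detected probes left 4 and 1254, and a normexp offset of 16 left 5 and 2031. Leaving out single arrays gave 4 to 9 members and 1491 to 2867 genes. The authors' log2 values, the mean of a gene's probes and array weights gave 8 to 10 of 33 members. Of all genes these settings called 18.5% to 21.0%. No detection filter gave 8 of 41 members and 7.80% of 30563 genes. Detection on all 6 arrays gave 9 of 30 members and 23.7% of 11483 genes. With the replicate number as a block 11 members were called, RPS6KA3 and SGK3 in addition, and 2998 genes. Same-numbered arrays had deviations correlated at 0.03, 0.08 and 0.17, and arrays of different numbers at -0.13 to 0.06. The exception to the higher values of same numbers was siNR4A1 replicate 1, at 0.06 with siControl replicate 2. The labels do not state a pairing, and the main fit used none. The cause of these shifts was not tested.

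Signs turned only for members that had not passed. With array medians equalized AKT1 stood at 0.013, SGK1 at 0.17, INPP4B at 0.095 and INPPL1 at 0.024, and SGK1 at 0.018 with medians of detected probes equalized. When kept probes of a gene were averaged, RPTOR stood at 0.042 and PIK3C2A at -0.030. MTOR stood at -0.035 with array weights, and at -0.045, -0.074 and -0.041 without siControl replicate 2, siControl replicate 3 and siNR4A1 replicate 3. Over all single arrays left out, MTOR ran from -0.074 to 0.12, AKT1S1 from -0.30 to 0.18 and RPS6KB1 from -0.0075 to 0.20, with AKT1S1 above 0 and RPS6KB1 below 0 only without siControl replicate 2.

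With 3 arrays a group, SEs of members ran from 0.11 to 0.22 log2 units. The smallest member change that passed was 0.33 (RPS6KB2), and SGK3 at 0.35 and RPS6KA3 at -0.40 missed. Changes well above 1 SE can therefore go unresolved. The 8 members below the detection threshold could not be tested.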
